A study of Mus musculus with 2 samples.

Results

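The genes described here encode the transporters and enzymes of glycolysis, of pyruvate and lactate conversion and of the tricarboxylic acid (TCA) cycle. They form a list of 36 genes taken by name, and a probe belonged to a gene when either scanner file gave it the gene's symbol or an older one, such as Pkm2 for Pkm, Ldh1 for Ldha and Ldh2 for Ldhb. Of the 36 genes, 35 had at least 1 probe under this rule, 66 probes in all, and Gapdh was not analysed here. A probe was used when it lay well above background in at least 1 of the populations on both arrays. That left 63 of the 66 probes and all 35 genes, out of 21959 genes tested in the series. All 35 passed that limit in both populations and on either array, and 0 were saturated. The gene was represented by its brightest probe.

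CD8+CD122+ and CD8+CD122- cells were sorted from the spleens of C57BL/6 mice, and their amplified messenger RNA was compared on 2 two-colour Agilent arrays. On array 1 the CD8+CD122+ sample was in Cy5 and the CD8+CD122- sample in Cy3; array 2 is labelled as a second trial and has the dyes exchanged. Both populations thus come from the same strain and organ and carry CD8, and they differ in CD122, the beta chain of the interleukin 2 and interleukin 15 receptors. The sources used here do not give the number of mice, their age, or any pooling or treatment. Nor do they say whether new mice were taken for the second trial. The SDs thus measure only the spread between 2 arrays. The limma p-values rest on that spread and on a variance pooled over all genes (prior SD 0.0996, 1.8 prior degrees of freedom). Neither can be read as a spread between mice. A log2 ratio above 0 means a higher signal in CD8+CD122+ cells, opposite to the deposited value table. Normalised intensities are in arbitrary units and include an offset of 50 that shrinks the ratios of dim genes.

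Glycolysis splits glucose into pyruvate in the cytosol. Pyruvate is then either reduced to lactate, which leaves the cell, or taken into mitochondria, where the pyruvate dehydrogenase complex turns it into acetyl-CoA for the TCA cycle. Resting T cells are known to rely mainly on mitochondrial oxidation, whereas activated T cells take up more glucose and run more glycolysis. Memory CD8 T cells are known for a large oxidative reserve. CD8+CD122+ cells include memory-like cells, and the series calls them regulatory.

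The markers of the sort and of other cells were measured beside these genes. Il2rb, the gene of CD122, had log2 ratios of 2.60 on array 1 and 2.34 on array 2. The 7 genes listed for CD8 T cells were all detected in each sample. They include CD3 chain genes and Lck, which other T cells share, and Il2rb itself, so their detection alone does not identify CD8 T cells. Of the 7, 4 had negative ratios on both arrays: Cd8a (-0.31 and -0.91), Cd8b1 (-0.48 and -0.86), Cd3g (-0.39 and -0.60) and Cd3d (-0.0035 and -0.26). Of the markers of other blood cells, Lyz2 of macrophages had 0.77 and 0.33, and Cd79b of B cells -0.20 and -0.76. The 2 platelet and 2 granulocyte markers did not pass the filter. The summed normalised intensity of 4 macrophage and monocyte markers was 787 in CD8+CD122+ and 679 in CD8+CD122- cells on array 1, and 907 and 829 on array 2. For 4 B cell markers it was 726 and 766 on array 1, and 595 and 715 on array 2. The 4 NK cell markers summed to 873 and 843 on array 1 and 767 and 741 on array 2. The part of such cells in the results below was not tested. In sorted bulk populations, fewer cells of one type and less RNA per cell cannot be told apart.

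Slc2a1 and Hk2, which encode a glucose transporter and a hexokinase, had a higher signal in CD8+CD122+ cells on either array. Ldhb, Pdk1 and Idh2, which encode a lactate dehydrogenase subunit, a kinase that inhibits pyruvate dehydrogenase and an isocitrate dehydrogenase, were lower on both. These were the 5 members with log2 ratios at least 0.32 from 0 the same way on both arrays: 2 of 35 were higher (5.71%), against 1.56% of all genes tested, and 3 of 35 were lower (8.57%), against 1.42%. At least 2-fold on both arrays, 0 of 35 members were higher, against 0.31% of all genes, and 1 was lower (Ldhb), against 0.105%. Most other members lay near equality. The mean log2 ratio was within 0.25 of 0 for 27 of 35 members (77.1%) and for 87.7% of all genes tested, and the median was -0.02 for the members and 0.01 for all genes.

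At a Benjamini-Hochberg adjusted p under 0.05, limma found 0 of 35 members higher (0% of all 21959 genes) and 0 lower (0%), also with an intensity trend and in its robust form, and its smallest adjusted p among members was 0.311. Without adjustment, 5 of 35 members (14.3%) had a limma p under 0.05 and a higher signal, against 2.87% of all genes, namely Slc2a1, Hk2, Gpi1, Pfkp and Pgam1. At the same limit 2 members had a lower signal (5.71%), against 3.53% of all genes, namely Ldhb and Idh2. By sign alone, 8 members were positive on both arrays (22.9%, against 29.1% of all genes) and 9 negative on both (25.7%, against 24.1%), which is near the background. The members were brighter than most genes, with a median mean log2 intensity of 9.19 against 7.12, and they varied more between the arrays, with a median SD of 0.19 against 0.08.

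The arrays differed in how many members lay past these limits. On array 1 alone 3 members were at least 0.32 above 0 (Slc2a1, Hk2 and Pgam1), against 3.05% of all genes, and 3 at least 0.32 below (Ldhb, Pdk1 and Idh2), against 3.63%. On array 2 alone 4 were above (Slc2a1, Hk2, Pfkp and Slc16a1), against 7.1%, and 8 below (Hk1, Pfkm, Ldha, Ldhb, Pdk1, Idh2, Suclg1 and Fh1), against 10.4%. At 2-fold, array 2 alone had Slc2a1 and Hk2 higher (1.17% of all genes) and Ldhb and Pdk1 lower (0.815%), and array 1 alone had 0 higher (0.442%) and Ldhb lower (0.178%).

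**Figure D1:**
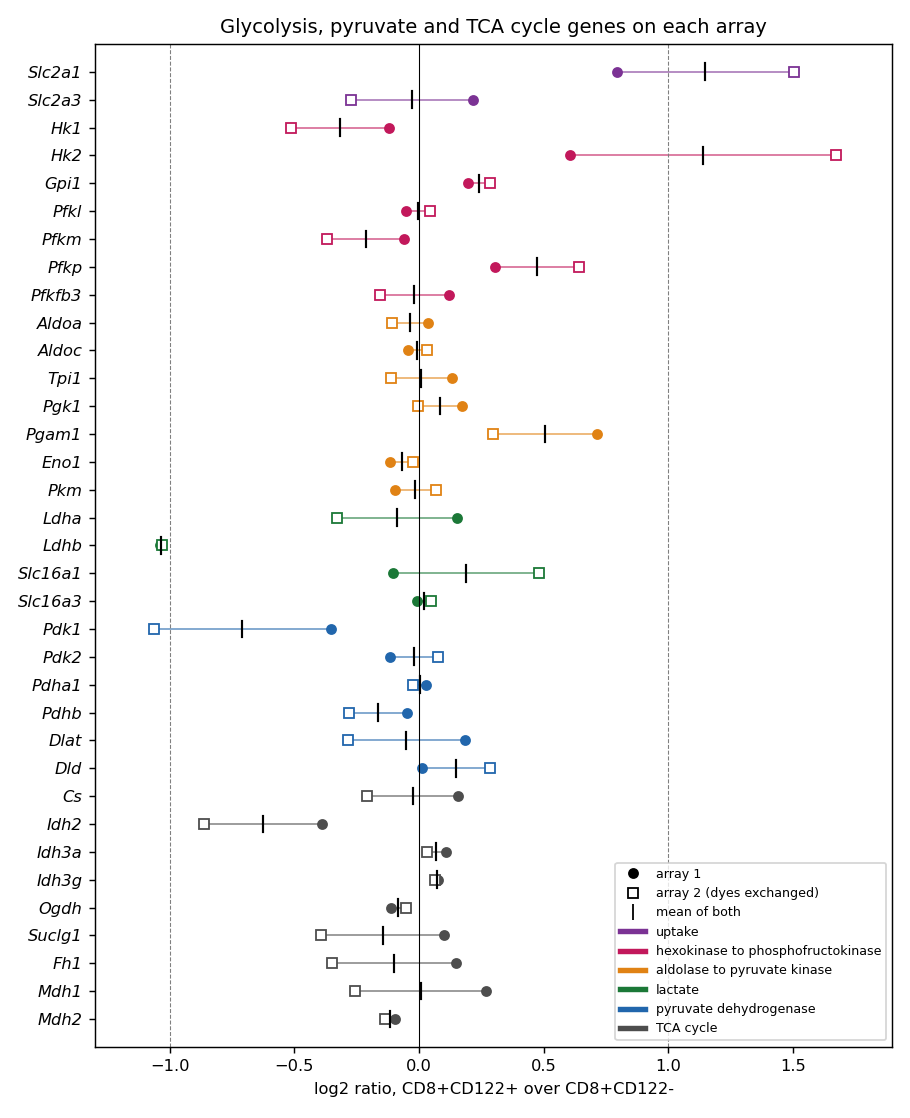
The log2 ratio (x axis) of each of the 35 measured genes (rows, in pathway order and coloured by step) on array 1 (filled circles) and array 2 (open squares), with the mean of both as a black tick and dashed lines at 2-fold. Slc2a1 and Hk2 lie to the right on both arrays, Ldhb, Pdk1 and Idh2 to the left, and 18 genes have symbols on either side of 0.

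**Figure D2:**
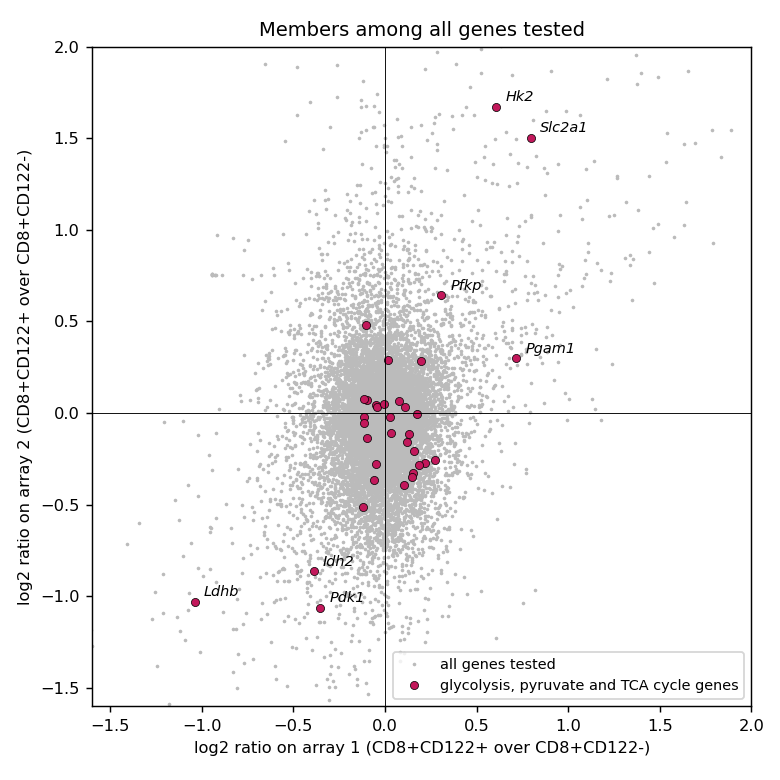
The log2 ratio on array 1 (x axis) against that on array 2 (y axis) for all genes tested (grey) and the 35 measured genes of glycolysis, pyruvate and TCA cycle (red), with names where the mean is beyond 0.45. Axes run from -1.6 to 2, and 96 genes lie outside. Most members sit within the grey cloud.

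Sequences of the promoters of the 5 members that differed on both arrays are shown with the motif ACGTG, known as the core of the hypoxia response element, since Slc2a1, Hk2 and Pdk1 are known targets of the hypoxia-inducible factor. They run from 250 bases before to 50 bases after the RefSeq transcript start on GRCm38.p6, 5' to 3' on the gene's strand, with each ACGTG or its reverse complement CACGT in capitals. The windows are chr4:119108495-119108794 (plus strand) for Slc2a1, chr6:82774405-82774704 (minus strand) for Hk2, chr6:142507908-142508207 (minus strand) for Ldhb, chr2:71872974-71873273 (plus strand) for Pdk1 and chr7:80115301-80115600 (minus strand) for Idh2.
Slc2a1 promoter: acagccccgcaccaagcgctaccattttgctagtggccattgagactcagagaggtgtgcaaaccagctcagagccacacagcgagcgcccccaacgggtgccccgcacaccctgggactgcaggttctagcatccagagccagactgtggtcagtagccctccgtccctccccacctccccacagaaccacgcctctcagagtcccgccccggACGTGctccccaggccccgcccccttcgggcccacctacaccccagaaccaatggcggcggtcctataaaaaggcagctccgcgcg
Hk2 promoter: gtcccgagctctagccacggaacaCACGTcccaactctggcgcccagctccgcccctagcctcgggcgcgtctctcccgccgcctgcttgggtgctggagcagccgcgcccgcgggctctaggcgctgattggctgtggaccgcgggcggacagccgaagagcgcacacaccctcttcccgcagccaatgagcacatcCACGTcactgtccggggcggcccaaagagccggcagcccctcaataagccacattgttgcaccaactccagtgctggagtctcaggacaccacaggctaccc
Ldhb promoter: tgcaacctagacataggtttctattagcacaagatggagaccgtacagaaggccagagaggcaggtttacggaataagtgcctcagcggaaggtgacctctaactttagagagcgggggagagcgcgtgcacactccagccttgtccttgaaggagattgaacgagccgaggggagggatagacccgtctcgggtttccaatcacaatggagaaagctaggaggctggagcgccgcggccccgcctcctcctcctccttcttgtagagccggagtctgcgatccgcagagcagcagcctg
Pdk1 promoter: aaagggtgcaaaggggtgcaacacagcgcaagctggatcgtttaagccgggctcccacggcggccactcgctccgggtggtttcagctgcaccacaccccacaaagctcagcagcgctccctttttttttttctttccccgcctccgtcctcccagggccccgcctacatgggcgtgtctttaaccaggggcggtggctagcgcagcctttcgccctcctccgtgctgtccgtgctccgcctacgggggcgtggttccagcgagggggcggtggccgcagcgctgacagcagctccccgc
Idh2 promoter: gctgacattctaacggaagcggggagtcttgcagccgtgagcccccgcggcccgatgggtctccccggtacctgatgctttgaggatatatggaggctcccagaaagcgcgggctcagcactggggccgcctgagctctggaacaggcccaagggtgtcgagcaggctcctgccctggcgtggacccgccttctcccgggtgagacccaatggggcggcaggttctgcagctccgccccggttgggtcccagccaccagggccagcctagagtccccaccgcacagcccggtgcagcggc

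ACGTG occurred once in the Slc2a1 window and at 2 places in that of Hk2. It occurred 0 times in the windows of Ldhb and Idh2 and in both windows of Pdk1, of which the upstream one is shown. The printed windows of Ldhb, Pdk1 and Idh2 do hold the other form GCGTG, and that of Slc2a1 its reverse complement CACGC. The absence of ACGTG is thus not an absence of the core. Promoters were found for 34 of the 36 genes, and 27 of their 53 windows (50.9%) held ACGTG on either strand, against 19.6% of 32851 windows of the same length in the whole table. These windows were also richer in G and C, with a median of 61% against 52.7%. The E-box CACGTG, which contains ACGTG, was in 0 of the 5 windows printed, in 15.1% of the members' windows and in 7.15% of all. The GC box GGGCGG, or CCGCCC on the other strand, was found at 2 places for Slc2a1, 3 for Hk2, 0 for Ldhb, 2 for the upstream Pdk1 window and 2 for Idh2. It was in 58.5% of the members' windows and in 35.7% of all. Of the members positive on both arrays, Slc2a1, Hk2, Pgam1 and Idh3g held ACGTG, and Gpi1 and Pfkp were among those that did not. Of the members negative on both, Hk1, Pfkm, Pdhb and Ogdh held it, and Eno1, Ldhb, Pdk1, Idh2 and Mdh2 did not. Aldoa, Ldha, Pgk1 and Pkm, which lay near 0, held it as well. A relation between ACGTG and the ratios was not tested. A match describes letters in these windows and no binding was measured.

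Glucose enters T cells mainly through GLUT1, the product of Slc2a1. Its normalised intensity was 1359 in CD8+CD122+ and 783 in CD8+CD122- cells on array 1, and 2179 and 769 on array 2. Both values of CD8+CD122+ cells lay above both of CD8+CD122- cells. The log2 ratios of 0.80 and 1.50 gave a mean of 1.15 ± 0.50 (SD, n = 2 arrays; 2.22-fold higher; limma adjusted p 0.652). Slc2a1 had a single probe. Slc2a3, which encodes the glucose transporter GLUT3, had ratios of opposite sign, 0.22 on array 1 and -0.27 on array 2 (mean -0.03 ± 0.35).

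Hexokinase traps glucose in the cell by phosphorylation. Hk2, the inducible form of that enzyme, had normalised intensities of 158 in CD8+CD122+ and 104 in CD8+CD122- cells on array 1, and of 413 and 129 on array 2. CD8+CD122+ cells were higher on each array, but the size of the gap differed between them, with log2 ratios of 0.61 and 1.67 (mean 1.14 ± 0.75, n = 2; 2.20-fold higher; limma adjusted p 0.766). With the deposited processed signals, which have no offset, the mean was 1.68, with 1.21 on array 1 and 2.14 on array 2, so that Hk2 passed 2-fold on both. Hk1, the form found in most tissues, went slightly the other way, at -0.12 and -0.51 (mean -0.32 ± 0.28), and its 5 other probes gave means from -0.15 to 0.15.

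The next steps isomerise the sugar and commit it to glycolysis at phosphofructokinase. Gpi1, the isomerase, was 6958 and 6064 on array 1 and 8049 and 6615 on array 2, in CD8+CD122+ and CD8+CD122- cells respectively. The shift was small and similar on both arrays (0.20 and 0.28; mean 0.24 ± 0.06; 1.18-fold higher; limma adjusted p 0.734), and the second, dim probe gave -0.01. Pfkp, the platelet-type phosphofructokinase, was 284 against 230 on array 1 and 489 against 313 on array 2. Its log2 ratios were 0.31 and 0.64 (mean 0.47 ± 0.24; 1.39-fold higher; limma adjusted p 0.713), but another, dimmer probe of the gene gave -0.02 and the mean of both probes was 0.23. The liver form Pfkl (mean 0.00 ± 0.07) and the muscle form Pfkm (-0.21 ± 0.22) were not higher. Pfkfb3, which makes the activator of phosphofructokinase, had opposite signs on the arrays (0.12 and -0.16).

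The later steps of glycolysis, from aldolase to pyruvate kinase, had a median log2 ratio of -0.01 over the 7 genes measured. Pgam1, the phosphoglycerate mutase, was the exception, with 1744 in CD8+CD122+ and 1062 in CD8+CD122- cells on array 1 and 1272 and 1035 on array 2. Both ratios were positive (0.72 and 0.30; mean 0.51 ± 0.30; 1.42-fold; limma adjusted p 0.754), and both its CD8+CD122+ values exceeded both its CD8+CD122- values. With median centring in place of loess, array 2 gave -0.12 for Pgam1, so its direction on that array depended on the normalisation, and Gpi1 likewise went to -0.19 there. The other 6 genes of these steps had means between -0.07 and 0.08: the aldolases Aldoa and Aldoc, the triosephosphate isomerase Tpi1, the phosphoglycerate kinase Pgk1, the enolase Eno1 and the pyruvate kinase Pkm. Aldoa, a bright probe, was 8891 against 8682 on array 1 and 8570 against 9226 on array 2. Several of these enzymes have near-identical processed pseudogenes, and the Eno1 probe carried another name in the array 1 file, so the share of each gene in its probe's signal is uncertain.

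Lactate dehydrogenase interconverts pyruvate and lactate and is built from A and B subunits. Ldhb, the B subunit gene, was 119 in CD8+CD122+ and 244 in CD8+CD122- cells on array 1, and 141 and 288 on array 2. Both values of CD8+CD122+ cells lay below both of CD8+CD122- cells, with nearly the same ratio on each array (-1.04 and -1.03; mean -1.03 ± 0.01; 2.05-fold lower; limma adjusted p 0.311). A second probe for Ldhb, dimmer and named for a cDNA clone in the array 1 file, gave 0.12 (0.13 and 0.12), and the mean of both was -0.46, under 2-fold. The A subunit gene Ldha was bright in both populations, at 5494 and 4939 on array 1 and 9379 and 11776 on array 2. Its ratios had opposite signs (0.15 and -0.33; mean -0.09 ± 0.34), and its other probe gave -0.12.

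Lactate leaves and enters the cell through monocarboxylate transporters. Slc16a1, the gene of MCT1, was 475 against 511 on array 1 and 852 against 610 on array 2. The ratios were -0.10 and 0.48 (mean 0.19 ± 0.41), and its 2 other probes gave means of 0.07 and 0.18. Slc16a3, the gene of the lactate exporter MCT4, was near equality on both arrays (-0.01 and 0.05).

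Pyruvate dehydrogenase kinases phosphorylate and inhibit the pyruvate dehydrogenase complex. Pdk1 was 481 in CD8+CD122+ and 614 in CD8+CD122- cells on array 1, and 437 and 912 on array 2. Both CD8+CD122+ values lay below both CD8+CD122- values (-0.35 and -1.06; mean -0.71 ± 0.50; 1.63-fold; limma adjusted p 0.795). With median centring the ratio on array 1 was -0.06, so the gene then stayed short of 0.32 there. Pdk2, another kinase of the family, had -0.12 and 0.08. The genes of the complex itself had means within 0.25 of 0 on their brightest probes. The values were 0.00 ± 0.03 and -0.16 ± 0.16 for the E1 subunit genes Pdha1 and Pdhb, -0.05 ± 0.33 for the E2 gene Dlat and 0.15 ± 0.19 for the E3 gene Dld. The Dlat ratios had opposite signs (0.18 and -0.29), and its dimmer probe gave a mean of -0.29 (-0.03 and -0.56).

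The TCA cycle genes had a median of -0.08, with 0.10 on array 1 and -0.21 on array 2. Idh2, the mitochondrial isocitrate dehydrogenase that makes NADPH, was the only one of these 9 genes at least 0.32 from 0 on both arrays. It was 110 in CD8+CD122+ and 144 in CD8+CD122- cells on array 1, and 120 and 218 on array 2. CD8+CD122+ cells were lower on each (-0.39 and -0.86; mean -0.63 ± 0.34; 1.54-fold; limma adjusted p 0.713). The probe was dim, and with the deposited processed signals the mean was -1.09. With median centring the array 1 ratio was -0.29.

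The 2 measured subunits of the NAD-dependent isocitrate dehydrogenase, Idh3a (0.07 ± 0.06) and Idh3g (0.07 ± 0.01), were close to equal. So was the mitochondrial malate dehydrogenase Mdh2 (-0.12 ± 0.03), 7723 against 8264 on array 1 and 10201 against 11215 on array 2. Ogdh, of the oxoglutarate dehydrogenase complex, had -0.08 ± 0.04. Citrate synthase (Cs), the succinate-CoA ligase subunit Suclg1, fumarate hydratase (Fh1) and the cytosolic malate dehydrogenase Mdh1 were each positive on array 1 and negative on array 2. Their array 2 ratios ran from -0.39 (Suclg1) to -0.21 (Cs), and their array 1 ratios from 0.10 to 0.27.

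**Figure D3:**
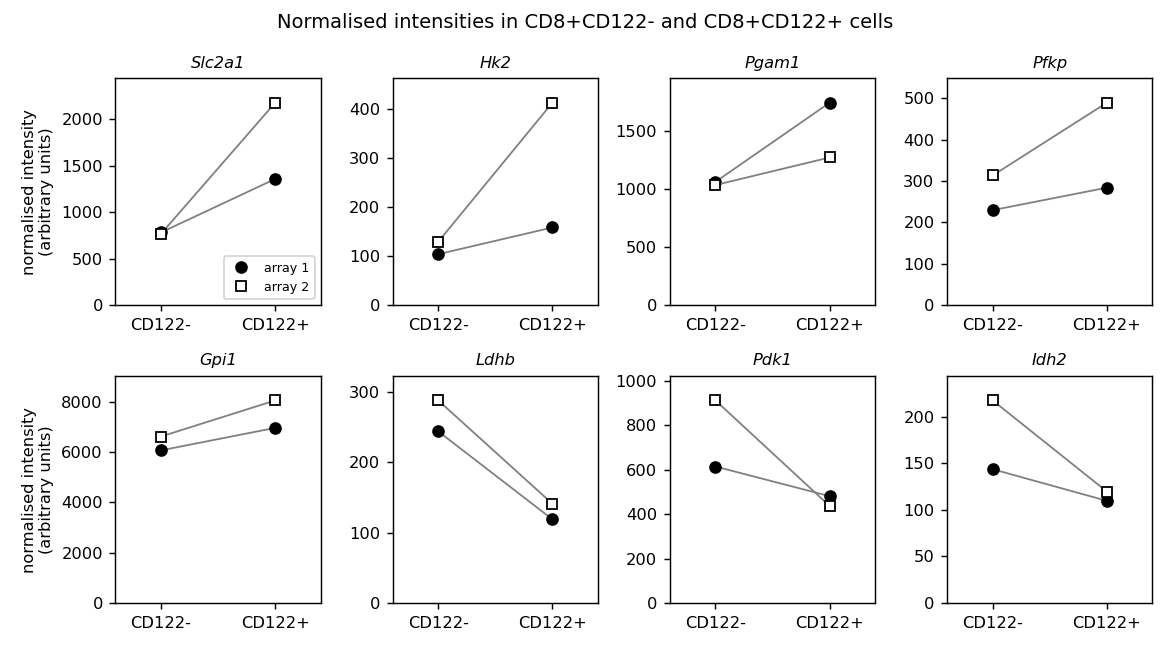
Normalised intensity (y axis, arbitrary units, from 0) in CD8+CD122- and CD8+CD122+ cells for 8 genes, with a line joining the populations of array 1 (filled circles) and of array 2 (open squares). The lines of Slc2a1, Hk2, Pgam1, Pfkp and Gpi1 go up on both arrays and those of Ldhb, Pdk1 and Idh2 go down on both.

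Some isozymes of one step differed in their ratios. Of 10 isozyme pairs, 7 had a difference of one sign on both arrays and 3 a difference of at least 0.5 on both. These were Hk2 over Hk1, with a difference of log2 ratios of 0.73 on array 1 and 2.18 on array 2 (mean 1.46 ± 1.03, n = 2), Slc2a1 over Slc2a3 with 0.58 and 1.78 (1.18 ± 0.85) and Ldha over Ldhb with 1.19 and 0.70 (0.95 ± 0.35). Pdk2 over Pdk1 had 0.24 and 1.14. Ldhb stands here for its brightest probe, while its second probe gave a mean of 0.12, against -0.09 for Ldha. The phosphofructokinase pairs share genes. Neither a shared sign nor a difference of at least 0.5 on both arrays was counted for other pairs of genes, so both counts lack a background. Each of the 3 pairs past 0.5 holds Hk2, Slc2a1 or Ldhb, named above for their own ratios, so that count is no separate result. An exact sign test over 2 arrays cannot give a two-sided p under 0.5, so these differences stand as descriptions.

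Ratios that follow the dye have opposite signs on a dye-exchanged pair of arrays, but so can ratios that differ between the trials or vary at random. With 2 arrays these cannot be told apart. For 18 of the 35 members the ratios had opposite signs on the arrays, against 10272 of all 21959 genes. In 12 of these (34.3% of members, against 25% of all genes) the population labelled with Cy5 was higher on both arrays, among them Ldha, Cs, Fh1, Suclg1 and Mdh1. In 6 (17.1%, against 21.7%) it was the population in Cy3. Averaging the dye-exchanged arrays removes a dye effect that they share.

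Of 19 members with several probes, 14 had probe means within 0.25 of each other, and 5 did not: Ldhb, Ogdh, Pfkp, Hk1 and Dld. The widest gap, 1.16, was between the probes of Ldhb. Most members had a mean within 0.25 of 0, so close probe means say little about whether a shift recurs on a second probe. Gpi1 fell just inside the limit, with means of 0.24 and -0.01. Slc2a1, Hk2, Pgam1, Pdk1 and Idh2 had 1 probe each, so their shifts have no second probe to compare.

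**Figure D4:**
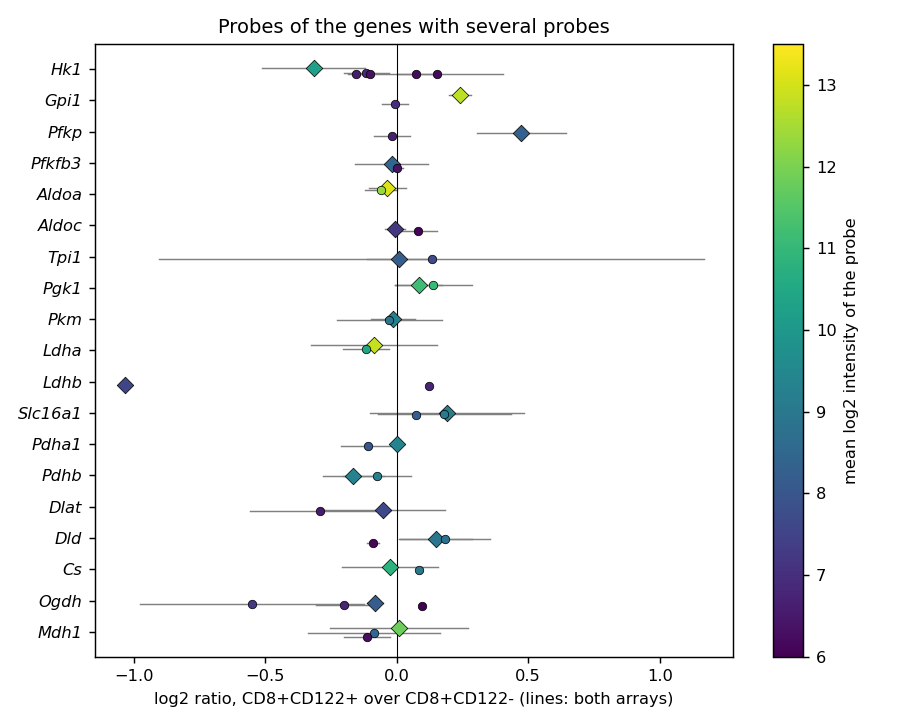
Mean log2 ratio (x axis) of every probe of the 19 genes with several probes (rows), coloured by the probe's mean log2 intensity, with lines to the values of both arrays; diamonds mark the probe that represents the gene. The brightest probes of Ldhb and Pfkp lie apart from their dimmer probes, and 1 probe of Tpi1 spans from -0.90 to 1.17.

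The neighbouring steps of central metabolism were counted in a further list of 62 genes, which holds other isozymes, the pyruvate carriers, succinate dehydrogenase, malic enzymes, gluconeogenic and pentose phosphate enzymes and a few regulators. Of 57 genes tested, 1 was at least 0.32 above 0 on both arrays, against 1.56% of all genes, and 0 were below, against 1.42%. The median was -0.02, and these counts are near the background. The gene above 0.32 was Me2, the mitochondrial malic enzyme, which makes pyruvate from malate (0.80 and 0.49; mean 0.65 ± 0.22; 1.56-fold higher; limma adjusted p 0.619). The pyruvate carrier genes Mpc1 (0.08 and 0.30) and Mpc2 (0.15 and 0.21) were positive on both arrays, and 16 of the list were positive and 18 negative on both. Of the succinate dehydrogenase genes, Sdha was negative on both (-0.16 and -0.53), while Sdhb (0.04 and -0.15), Sdhc (0.04 and -0.19) and Sdhd (-0.09 and 0.20) had opposite signs. Counts at an unadjusted limma p under 0.05 were also near the background, with 1 gene higher (Me2, against 2.87% of all genes) and 2 lower (against 3.53%), the glycerol phosphate dehydrogenase Gpd2 (-0.33 and -0.27) and Pck2, the mitochondrial phosphoenolpyruvate carboxykinase (-0.26 and -0.60). Of the genes named here only Me2 met the rule for naming, at least 0.32 from 0 the same way on both arrays. The others, and Myc, Hif1a and Got1 below, were named outside that rule, Gpd2 and Pck2 after their values were seen.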

How the data were processed

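Spots were quantified with Feature Extraction A.7.5.1 (array 1) or 8.1.1.1 (array 2), per the file headers. The deposited scanner output holds spot and background intensity values, flags of 0 or 1 per spot (other values, per the file headers), processed intensities and log10 ratios, Cy5 over Cy3. In the deposited value table these log10 ratios recur, with the sign turned on array 1. Of 41174 probes, 77.8% were named through RefSeq's GRCm38.p6 gene table. The sources used here name no genome build of the authors. Mean intensities were background-corrected (normexp, offset 50), normalised by loess within each array, with control spots at weight 0, and turned to CD8+CD122+ over CD8+CD122- (limma 3.58.1, R 4.3.3). Levels were scaled between arrays by Aquantile. All genes were fitted with limma (1 residual degree of freedom, two-sided, Benjamini-Hochberg adjustment). The rules of size on both arrays (2-fold, and 0.32 on the log2 scale) carry no p-value. Every member was named, and other pathway genes where past 0.32 on both arrays or as stated. The steps were tested on simulated data, with changes set only in probes brighter than those of Hk2, Ldhb and Idh2. That test therefore does not cover such dim genes. Members and lists were chosen with earlier results of these data known. Array number limits precision. Alternatives changed the background correction, offset, normalisation, filter, probe rule, variance model, array and source of ratios.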

Additional observations from a re-analysis of the deposited data

How the results depend on the processing

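Over 7 other settings of the processing with both arrays, Slc2a1 (1.11 to 1.22), Hk2 (1.06 to 1.68), Ldhb (-1.49 to -0.46), Pdk1 (-0.77 to -0.71) and Idh2 (-1.09 to -0.63) kept their sign. The changes of filter left all these values as they were, and the mean of all probes changed only that of Ldhb. Where a value stayed the same, the setting was no further check of its sign. The deposited processed signals and the deposited value table hold the same ratios and count as 1 alternative in effect. With either of them, or with an offset of 0, 1 member was at least 2-fold higher on both arrays (Hk2, against 0) and 4 were at least 0.32 above 0 (Slc2a1, Hk2, Pfkp and Pgam1, against 2). The shares of all genes were larger too, at 0.656% and 2.91% with the processed signals. With median centring, 1 was 2-fold higher (Slc2a1), 0 were 2-fold lower, 1 was at least 0.32 below 0 (Ldhb), and 4 were positive and 4 negative on both arrays, against 8 and 9. Of all genes, 15.2% were then positive and 13% negative on both, against 29.1% and 24.1%, so the counts dropped over all genes as well; the cause was not tested. With the mean of all probes 0 were 2-fold lower, since the second probe of Ldhb pulls its mean to -0.46. With 1 array left out, the counts ran from 0 to 2 (2-fold higher, against 0.442% to 1.17% of all genes), 1 to 2 (2-fold lower, 0.178% to 0.815%), 3 to 4 (0.32 above 0, 3.05% to 7.1%), 3 to 8 (0.32 below 0, 3.63% to 10.4%), 14 to 20 (positive, against 50.9% to 54.2% of all genes) and 15 to 21 (negative, against 45.8% to 49.1%), and the median of the members from -0.05 to 0.03. limma called 0 genes under every setting with 2 arrays. No paired analysis was possible because the arrays form a single group with no second group to share replicate numbers; each ratio already sets both populations against each other within 1 array. Signal over background limits dim members such as Hk2, Ldhb and Idh2.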

Other observations

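A few values would merit a second look. The probe A_52_P116102 of Tpi1 had log2 ratios of -0.90 on array 1 and 1.17 on array 2, so the population labelled with Cy3 was higher on both arrays, while the gene's brighter probe gave 0.13 and -0.11. The probe A_52_P566487, which the array 2 file names Ogdh and the array 1 file Zfp26, had -0.12 and -0.98, against -0.11 and -0.05 for the brightest Ogdh probe. Myc and Hif1a, which encode transcription factors of glycolytic genes, had opposite signs on the arrays, 0.64 and -0.40 for Myc and -0.29 and 0.33 for Hif1a. Got1, the cytosolic aspartate aminotransferase of the malate-aspartate shuttle, was near equality on array 1 (0.10) and higher in CD8+CD122+ cells on array 2 (0.94).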
